A study of Mus musculus with 2 samples.

Results

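Müller glia are the radial glial cells of the retina, and they clear what signalling neurons leave behind. They take up glutamate and turn it into glutamine, which is handed back to neurons. Potassium and water leave through channels at the end feet, and carbonic anhydrases handle the carbon dioxide and acid that neurons release. The 8 genes described here serve these tasks: Glul, Slc1a3, Slc1a2, Slc38a3, Kcnj10, Aqp4, Car14 and Car2. They were chosen by symbol and are 8 of the 32285 features in the deposited matrices. All 8 were detected in Müller glia-like cells of both libraries, with 253 to 9407 unique molecular identifiers (UMIs) per gene and library, and all 8 passed the minimum of 100 UMIs over both libraries. They were set against Lcn2, which encodes lipocalin 2, an iron-carrier-binding protein secreted in inflammation.

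The data were 2 single-cell libraries of mouse retina, 1 per group. Knockout mice carried GLAST-CreER and Atg5 fl/fl and received 4-hydroxy-tamoxifen. Control mice carried Atg5 fl/fl without Cre, and their labels give no tamoxifen. Both groups shared the floxed Atg5 alleles and lipopolysaccharide (LPS) in the vitreous at 0.5 µg per eye, so neither group is free of LPS and neither has unfloxed Atg5. Each library pooled 6 retinas. Atg5 is needed to form autophagosomes, and the study's title names autophagy and the inflammatory activation of Müller glia. Genotype, Cre and drug cannot be told apart with these groups. GLAST is the protein encoded by Slc1a3, one of the 8 genes. The sources used here do not say whether the driver is a transgene or lies in the Slc1a3 gene. Atg5 itself measured 18.1 CPM in knockout and 19.4 CPM in control Müller glia-like cells (CPM, a gene's UMIs scaled to the total of its library and class), a ratio of 0.931 (0.729 to 1.196). The libraries read 3′ ends, and tags that may lie outside the deleted stretch check nothing.

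The knockout library kept 4662 of 5229 barcodes and the control library 8274 of 8690, with a median of 6807 and 1396 UMIs per cell. Rod-like cells, which are shallow, were 11.2% of knockout and 45.6% of control cells kept. The libraries shared 15 barcodes, of which 1 was a Müller glia-like cell in both. Müller glia-like cells numbered 554 in the knockout library and 348 in the control library, with 10946892 and 5200671 UMIs and medians of 20102 and 14210 UMIs per cell. With 1 library per group no difference below has a replicate check. All intervals are 95% and cover counting error only.

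Müller glia-like cells came from 6 non-neuronal clusters, named from 12 marker genes that hold none of the 8 genes, and the clusters were made without the 8 genes or Lcn2. Rlbp1, the retinaldehyde-binding protein of Müller glia, measured 174 CPM in knockout and 396 CPM in control cells of the class. Clusters 5 and 6 stood apart. Cluster 5 held 5 knockout and 129 control cells, and a cluster almost wholly of 1 library may be that library and not a kind of cell. Cluster 6, with 47 knockout and 59 control cells, scored best for Müller glia through abundant markers such as Apoe, at 5581 CPM, and Cp, at 7957 CPM. Several other Müller markers were low in it: Rlbp1 was at 9.88 CPM against 77.7 to 881 CPM in the other 6 clusters, Sox2 at 22.9, Abca8a at 5.51, Gpr37 at 3.39 and Spc25 at 0.706 CPM, each below all 6. Sox9 was at 193 CPM, against 184 CPM in the shallow cluster 2 and 707 to 869 CPM in the other 5. Gja1, an astrocyte marker, was at 346 CPM, above its 0.601 to 160 CPM in the 6. The rest of the astrocyte list did not follow. Gfap was at 6.78 CPM, below its 24.0 to 279 CPM in the 6, Pax2 at 0, S100b at 2.54 and Pdgfra at 2.82 CPM. The leading genes of cluster 6 were Chil1, Orm1 and Grem1, and it was left unnamed. The main counts of genes called are given with and without each of these clusters. Correlations with Lcn2 in control cells are given with and without cluster 5. Correlations among genes other than Lcn2, and shares of cells with a UMI, are given only with cluster 5 included.

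Promoters of 4 of the genes are shown first, 250 bases each up to the RefSeq transcription start in GRCm38.p6, read 5′ to 3′ on the gene's strand. Glul and Car14 are shown for their wide difference between the libraries, Kcnj10 as the potassium channel of the set, and Slc1a3 because its protein name is that of the Cre driver. The table held 5 of the 8 genes. Capitals mark matches on either strand to the CCAAT box, to the GC box with the letters GGGCGG, to the TATA box with the letters TATAAA, or to TTCNNNGAA, a spacing that STAT factors bind. No match overlapped another in these 4 windows.
Glul, chr1:153899679-153899928, + strand: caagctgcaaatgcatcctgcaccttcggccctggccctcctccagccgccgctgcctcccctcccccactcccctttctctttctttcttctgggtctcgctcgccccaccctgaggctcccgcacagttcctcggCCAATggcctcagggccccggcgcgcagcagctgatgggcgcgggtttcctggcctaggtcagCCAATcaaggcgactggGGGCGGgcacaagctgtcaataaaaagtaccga
Car14, chr3:95904686-95904935, - strand: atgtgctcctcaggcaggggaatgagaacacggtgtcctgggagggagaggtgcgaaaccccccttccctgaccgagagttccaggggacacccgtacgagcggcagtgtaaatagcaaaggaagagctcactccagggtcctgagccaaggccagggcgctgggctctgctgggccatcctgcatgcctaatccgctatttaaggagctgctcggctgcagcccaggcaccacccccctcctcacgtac
Kcnj10, chr1:172340960-172341209, + strand: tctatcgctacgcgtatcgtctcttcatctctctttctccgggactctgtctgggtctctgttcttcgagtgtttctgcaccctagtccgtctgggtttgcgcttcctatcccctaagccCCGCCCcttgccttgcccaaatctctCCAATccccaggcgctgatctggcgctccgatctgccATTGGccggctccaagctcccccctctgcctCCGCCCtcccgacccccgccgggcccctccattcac
Slc1a3, chr15:8710808-8711057, - strand: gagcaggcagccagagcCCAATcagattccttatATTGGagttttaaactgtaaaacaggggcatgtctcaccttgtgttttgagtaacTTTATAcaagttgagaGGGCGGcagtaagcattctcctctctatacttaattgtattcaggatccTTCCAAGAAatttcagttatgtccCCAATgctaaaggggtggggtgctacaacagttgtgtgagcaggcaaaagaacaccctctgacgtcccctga
The Glul window held 2 CCAAT boxes and 1 GC box, the nearest of them beginning 33 bases before the start. The Kcnj10 window held 2 of each. The Slc1a3 window held 3 CCAAT boxes and 1 match to each of the other motifs, the STAT spacing beginning 96 bases before the start. The Car14 window held none of the 4. Among 32851 windows of the same length, 33.8% held the CCAAT box, 32.7% the GC box, 12.4% the TATA box and 7.02% the STAT spacing, on either strand. A match describes these letters only, and no factor binding was measured.

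Of the 8 genes, 6 had their highest level in Müller glia-like cells of both libraries: Glul, Slc1a3, Kcnj10, Aqp4, Car14 and Car2. Over all genes with at least 100 UMIs, 8.08% in the knockout library and 7.90% in the control library were highest in Müller glia-like cells among the 10 classes compared. Slc1a2 and Slc38a3 went against the Müller label of the set, since photoreceptor-like cells had more of both. CPM values of different genes are not compared with each other. Gene coordinates below are on GRCm38.

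**Figure D1:**
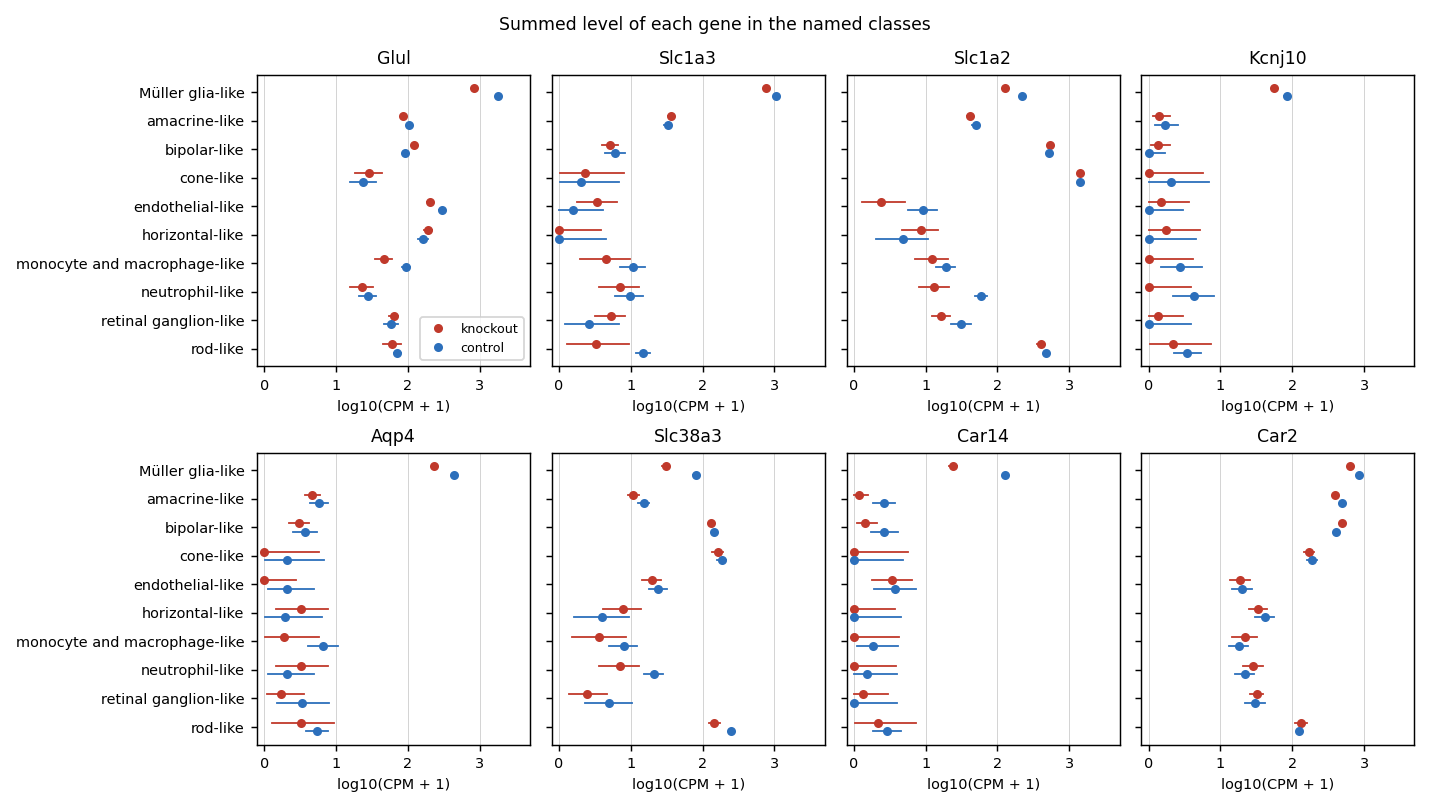
Summed level of each gene in the named classes, as log10(CPM + 1), with the knockout library in red above the control library in blue and lines for the 95% counting interval. Müller glia-like cells are the top row: 6 genes peak there, while Slc1a2 and Slc38a3 peak in cone-like or rod-like cells.

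Glul (chr1:153899944-153909723, + strand) encodes glutamine synthetase, which joins ammonia to glutamate. Its level was 844 CPM in knockout and 1809 CPM in control Müller glia-like cells. The next class, endothelial-like cells, stood at 202 CPM in the knockout and 296 CPM in the control library. A Glul UMI was found in 95.1% of knockout and 86.5% of control Müller glia-like cells, against 9.42% and 8.33% of rod-like cells, whose median depth was 1036 and 1121 UMIs. Part of the Glul exons overlaps the antisense gene Teddm2 and the microRNA gene Mir8114.

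Slc1a3 (chr15:8634124-8710764, - strand) encodes the glutamate transporter GLAST, the main uptake route of Müller glia. It measured 772 CPM in knockout and 1046 CPM in control Müller glia-like cells, and amacrine-like cells came next at 35.0 and 31.5 CPM. Slc1a2 (chr2:102658659-102790784, + strand) encodes the transporter GLT-1. It was at 127 CPM in knockout and 217 CPM in control Müller glia-like cells. Cone-like cells held 1425 CPM in the knockout and 1385 CPM in the control library, bipolar-like cells 535 and 528 CPM, and rod-like cells 399 and 470 CPM. Müller glia-like cells ranked 4th in both libraries. A UMI of Slc1a2 was found in 41.3% of knockout and 40.2% of control rod-like cells at medians of 1036 and 1121 UMIs, against 64.6% and 62.6% of the far deeper Müller glia-like cells. The Slc1a2 exons overlap the antisense gene Gm13872.

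Slc38a3 (chr9:107650634-107669530, - strand) encodes SNAT3, a carrier that moves glutamine across the glial membrane. It measured 29.5 CPM in knockout and 80.8 CPM in control Müller glia-like cells. Cone-like cells had 161 CPM in the knockout and 182 CPM in the control library, rod-like cells 144 and 248 CPM, and bipolar-like cells 130 and 145 CPM. Müller glia-like cells ranked 4th in both. Cone-like and rod-like cells overlapped within counting error in the knockout library (134 to 192 and 120 to 171 CPM), and rod-like cells were above cone-like cells in the control library.

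Kcnj10 (chr1:172341210-172374085, + strand) encodes Kir4.1, the inward rectifier through which Müller glia pass potassium. It was at 54.7 CPM in knockout and 82.9 CPM in control Müller glia-like cells. No other named class exceeded 1.15 CPM in the knockout or 3.23 CPM in the control library. Aqp4 (chr18:15389496-15410982, - strand) encodes aquaporin 4, the water channel of the end feet. It measured 232 CPM in knockout and 433 CPM in control Müller glia-like cells, 63.1-fold (47.0 to 86.7) and 76.3-fold (44.5 to 144) above the next class. A Kcnj10 UMI was found in 48.2% of knockout and 46.6% of control Müller glia-like cells, against 0.192% and 0.292% of rod-like cells at their far lower depth.

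Car14 (chr3:95897768-95904691, - strand) encodes a carbonic anhydrase on the outer face of the membrane. It was at 23.1 CPM in knockout and 127 CPM in control Müller glia-like cells, and endothelial-like cells came next at 2.35 and 2.75 CPM, from 5 UMIs in each library. The Car14 exons overlap the antisense gene Aph1a. Car2 (chr3:14886273-14900770, + strand) encodes the soluble carbonic anhydrase 2. It measured 643 CPM in knockout and 859 CPM in control Müller glia-like cells. Bipolar-like cells stood at 483 and 410 CPM and amacrine-like cells at 394 and 490 CPM, so Car2 was 1.33-fold (1.28 to 1.38) above the next class in the knockout library and 1.76-fold (1.68 to 1.83) above it in the control library. Car2 is also a red-cell enzyme: red-cell markers summed to 1025 CPM in knockout and 7.11 CPM in control Müller glia-like cells. In the knockout library 94.8% of those UMIs lay in 4 cells, which held 98 of its 7042 Car2 UMIs.

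The second comparison set knockout against control Müller glia-like cells. All 8 genes were lower in the knockout library, and 6 of them were at least 1.5-fold lower, the fold at which a difference is called here. Of 10183 genes with at least 100 UMIs, 15.3% were at least 1.5-fold lower and 3.88% at least 1.5-fold higher. The median log2 ratio was -0.84 over the 8 genes and -0.13 over all genes. TMM scaling moved every log2 ratio up by 0.20. Relative to that shift 4 genes stayed at least 1.5-fold lower (Glul, Aqp4, Slc38a3 and Car14), where 8.29% of all genes did, and all 8 kept their direction.

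The carbonic anhydrase gene Car14 differed most, at 0.182 of the control level (0.157 to 0.211). The glutamine carrier Slc38a3 was at 0.365 (0.315 to 0.423) and the synthetase Glul at 0.467 (0.453 to 0.480). Aqp4 was at 0.535 (0.505 to 0.567), Slc1a2 at 0.583 (0.539 to 0.631) and Kcnj10 at 0.660 (0.582 to 0.749). Kcnj10 lay just inside the fold that is called, and its interval crosses it. Car2, at 0.749 (0.721 to 0.777), and Slc1a3, at 0.738 (0.713 to 0.764), lay just outside. Relative to the TMM shift both were nearer to the control level, at 0.860 and 0.848. RNA of other cells moved with the libraries: the 10 rod markers, all detected, summed to 417 CPM in knockout and 1089 CPM in control Müller glia-like cells, and the 10 neutrophil markers to 82.7 and 205 CPM. Cxcr2 and Ly6g were at 0 in the knockout library, and Stfa2 in both. The 12 monocyte and macrophage markers summed to 67.2 and 170 CPM, with C1qa, Ccr2 and Ms4a7 at 0 in the knockout and Adgre1 and Fcgr1 at 0 in the control library. The 12 Müller markers themselves summed to 16575 and 20435 CPM, and the 5 astrocyte markers to 247 and 243 CPM. The part of these in the result was not tested.

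The 6 calls were lost without cluster 5. Then 549 knockout and 219 control cells remained, and 0 of the 8 genes were at least 1.5-fold lower or higher, where 6.30% of 9723 genes were lower and 5.08% higher. The median log2 ratio of the 8 genes was then -0.20, and that of all genes -0.05. Glul was at 843 CPM in knockout and 936 CPM in control cells, a ratio of 0.901 (0.866 to 0.938). Car14 was at 22.2 and 27.5 CPM, a ratio of 0.807 (0.636 to 1.03). Kcnj10 and Aqp4 turned to 1.14 (0.964 to 1.37) and 1.02 (0.942 to 1.11), both within counting error of no difference.

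Slc1a3 and Car2 did not follow the others. Without cluster 5 they were at 0.778 (0.748 to 0.810) and 0.785 (0.752 to 0.820) of the control level, close to their values with it. Within clusters 1, 2, 3, 8 and 10, one by one, Slc1a3 was at 0.597 to 0.805 and Car2 at 0.685 to 0.899 of the control level. Of the members with at least 100 UMIs in the cluster, Slc1a3 and Aqp4 were at least 1.5-fold lower in cluster 3 (2 of 5 members, 3.92% of all genes). Slc1a3 alone was lower in cluster 8 (1 of 8, 10.1% of all genes) and in cluster 10 (1 of 5, 8.85% of all genes). In cluster 1, which held the largest share of knockout Müller glia-like cells (42.6%), 0 of 8 were lower, where 5.55% of all genes were. Aqp4 in cluster 3 was at 87.1 CPM in knockout and 152 CPM in control cells. Glul was at 0.848 to 1.16 in clusters 1, 3, 8 and 10.

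Cluster 2 differed from these. Its median depth was 2738 UMIs in 79 knockout cells and 1369 UMIs in 81 control cells. Glul, at 532 CPM in knockout and 1760 CPM in control cells, was 1 of 3 members with at least 100 UMIs there and alone among them in being at least 1.5-fold lower, as were 8.57% of all genes. Members below that minimum rested on few UMIs and are not counted. Among them Aqp4 was at 0.191 (0.103 to 0.337) from 17 and 50 UMIs. Kcnj10 was at 0.442 (0.182 to 1.05) from 11 and 14 UMIs, and Slc38a3 at 0.625 (0.228 to 1.74) from 10 and 9 UMIs. Rod markers summed to 1769 CPM in knockout and 4405 CPM in control cells of the cluster, and neutrophil markers to 163 and 885 CPM. Their part in these values was not tested.

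Adding cluster 6 to the class left 3 of the 8 genes at least 1.5-fold lower (Glul, Slc38a3 and Car14) and 15.7% of all genes. Its median depth was 26831 UMIs in knockout and 57763 UMIs in control cells, and Kcnj10 had 3 UMIs in all its knockout cells and 0 in the control cells. With cluster 6 and without cluster 5 the count of genes at least 1.5-fold lower was again 0, where 13.0% of all genes were lower and 8.15% higher, and Slc1a2 and Kcnj10 were higher in the knockout library, at 1.58 (1.43 to 1.75) and 2.09 (1.76 to 2.49). Slc1a3 and Car2 were then at 1.15 (1.11 to 1.196) and 1.12 (1.08 to 1.16), and Glul, at 0.751 (0.730 to 0.772), was alone in staying below the control level. The direction of the other 7 genes therefore depends on which clusters are counted as Müller glia.

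**Figure D2:**
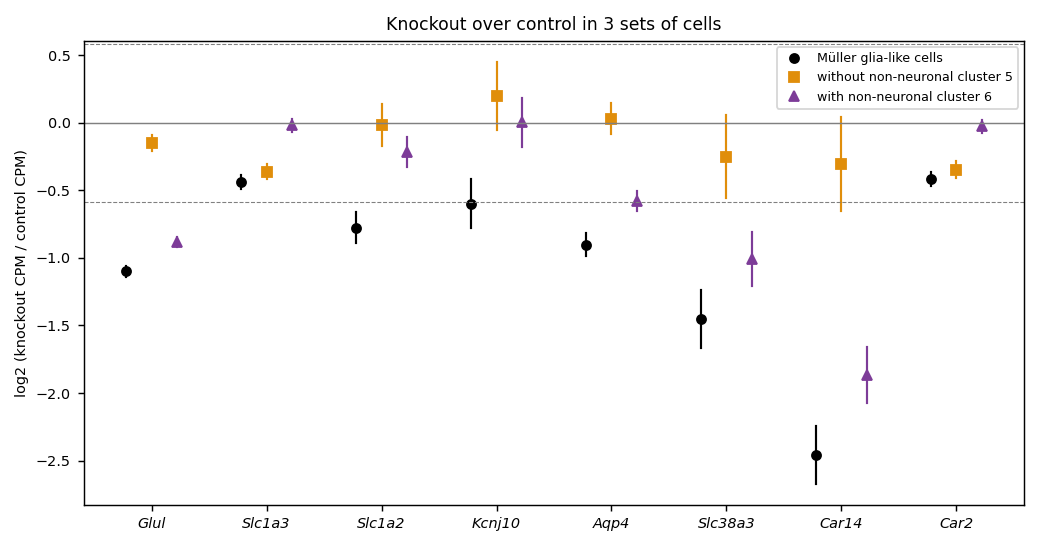
Knockout over control for each gene on a log2 axis in 3 sets of cells: Müller glia-like cells, the same without non-neuronal cluster 5, and the same with non-neuronal cluster 6. Points carry 95% counting intervals and dashed lines mark 1.5-fold. The Müller glia-like values run from 0.182 for Car14 to 0.749 for Car2, and those without cluster 5 from 0.778 for Slc1a3 to 1.14 for Kcnj10.

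Glul, Slc1a2, Slc38a3, Kcnj10, Aqp4 and Car14 stood high in the control cells of cluster 5. Against the other control Müller glia-like cells, its control cells had Glul at 3784 against 936 CPM, Slc1a2 at 425 against 125 CPM and Slc38a3 at 184 against 34.9 CPM. Kcnj10 stood at 164 against 47.1 CPM, Aqp4 at 904 against 225 CPM and Car14 at 351 against 27.5 CPM. Slc1a3, at 1186 against 984 CPM, and Car2, at 950 against 819 CPM, differed least, and Slc1a3 was higher in the control cells of clusters 8 and 10, at 1618 and 1532 CPM. Lcn2 went the other way, at 1921 against 35321 CPM. The 5 knockout cells of cluster 5 had Glul at 973 CPM and Kcnj10 at 172 CPM, from 68 and 12 UMIs. The cluster also had the highest Rlbp1 of the 6, at 881 CPM, and the lowest Gfap, the intermediate filament gene of reactive glia, at 24.0 against 163 to 279 CPM in the other 5. Endothelial markers, 8 in all, summed to 1711 CPM in its control cells, above the 435 to 1242 CPM of the other control clusters. Endothelial-like cells were the next class for Glul and Car14. Rod markers summed to 1308 CPM, within the range of 498 to 4405 CPM over the other control clusters, and neutrophil markers to 419 CPM against 50.6 to 885 CPM. Their part in the result was not tested.

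The third comparison followed the 8 genes across cells with little or much Lcn2. The 902 Müller glia-like cells of both libraries were ranked by Lcn2 and cut into 3 groups of equal size at 524 and 26030 CPM. Of these cells, 17 and 55 lay within 10% of a cut. The low group held 170 knockout and 131 control cells, the middle group 180 and 120, and the high group 204 and 97. Summed Lcn2 stood at 126 CPM in knockout and 115 CPM in control cells of the low group. It stood at 12677 CPM in knockout and 10168 CPM in control cells of the middle group, and at 51169 CPM in knockout and 58161 CPM in control cells of the high group. Lcn2 UMIs were left out of the totals in this section, so that a cell's Lcn2 does not push down its other genes.

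In the knockout library 3 of the 8 genes were at least 1.5-fold lower in the high than in the low Lcn2 group: Kcnj10 at 0.621 (0.506 to 0.760), Aqp4 at 0.512 (0.465 to 0.564) and Car14 at 0.525 (0.378 to 0.725). Over all genes the share was 4.10%, and 4.62% were at least 1.5-fold higher. In the control library 6 of the 8 were lower, all but Slc1a3 and Car2, where 24.2% of all genes were, and 13.7% were higher. The 3 genes of the knockout library were lower in both, as were 2.59% of all genes. Glul was at 0.748 (0.712 to 0.786) in the knockout and 0.241 (0.228 to 0.254) in the control library, and Car14 in the control library was at 0.0716 (0.0508 to 0.0985). Without cluster 5, and with Lcn2 cut anew, the same 3 genes were lower in both libraries. The share of all genes is given only for the main groups, which include cluster 5, so that count has none beside it. Kcnj10 was then at 0.619 in the knockout and 0.484 in the control library, Aqp4 at 0.531 and 0.510, and Car14 at 0.478 and 0.197. The Kcnj10 call in the knockout library did not hold in cells thinned to 5000 UMIs, where it was at 0.964, nor with TMM scaling, at 0.669. Thinned, Slc1a2, at 0.615 in the knockout library, and Slc38a3, at 0.555, joined Aqp4 and Car14 as lower in both libraries. With the mean of per-cell CPM, Kcnj10, at 0.672, and Car14, at 0.669, lost the call in the knockout library. Slc1a2, at 0.647 in the knockout library, and Slc38a3, at 0.593, then joined Aqp4 as lower in both libraries.

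**Figure D3:**
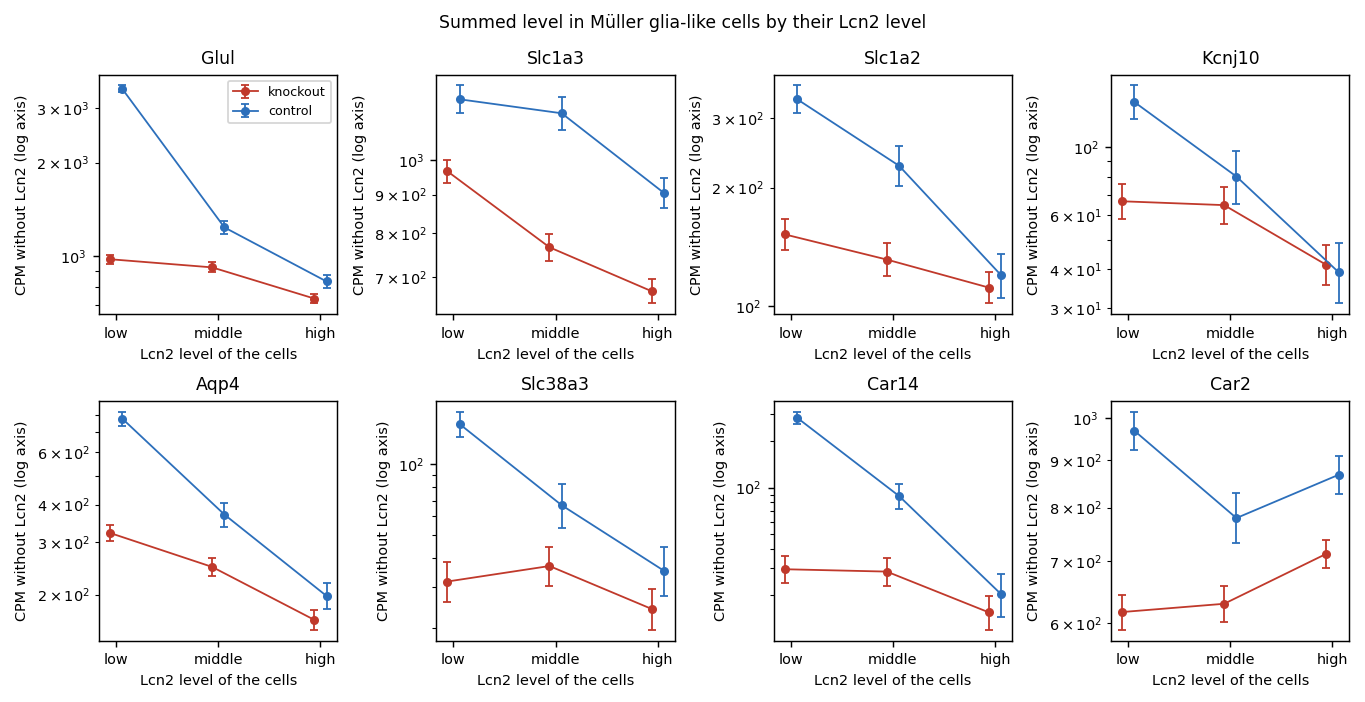
Summed CPM of each gene on a log axis in Müller glia-like cells with low, middle and high Lcn2, in the knockout (red) and control (blue) library, with 95% counting intervals. Knockout levels of Glul are 979, 922 and 732 CPM with rising Lcn2, and control levels 3454, 1240 and 831 CPM.

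For all of the 8 genes but Slc1a3, the libraries lay further apart where Lcn2 was low than where it was high. In the low group 7 of the 8 genes were at least 1.5-fold lower in knockout cells, where 24.1% of all genes were, and 11.2% of all genes were higher. Glul was at 979 CPM in knockout and 3454 CPM in control cells, and its median per cell was 833 and 2905 CPM. Car14 was at 29.5 and 284 CPM, Aqp4 at 322 and 776 CPM, and Slc38a3 at 31.7 and 148 CPM. Kcnj10 was at 66.7 and 140 CPM and Slc1a2 at 152 and 336 CPM. Car2 was at 617 and 969 CPM. Slc1a3, at 967 and 1204 CPM, was the exception, with a ratio of 0.803 (0.760 to 0.848). Its ratio was lower where Lcn2 was high, at 0.741 (0.698 to 0.786).

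In the middle group 4 of the 8 genes were at least 1.5-fold lower in knockout cells, against 12.2% of all genes (5.20% were higher): Slc1a3, Slc1a2, Slc38a3 and Car14. The median depth of this group was 19240 UMIs in knockout and 4170 UMIs in control cells. In the high group 0 of the 8 were lower or higher by 1.5-fold, against 4.85% and 5.08% of all genes, and the ratios ran from 0.688 for Slc38a3 to 1.06 for Kcnj10. Car14 there was at 15.5 CPM in knockout and 20.3 CPM in control cells, and Glul at 732 and 831 CPM. None of the 8 genes was at least 1.5-fold lower in all 3 groups, as 1.18% of all genes were.

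The 2 libraries drew their low group from different clusters. Cluster 5 gave 2 of the 170 knockout cells and 89 of the 131 control cells, and cluster 1 gave 85 and 12. With cluster 5 left out and Lcn2 cut anew at 2841 CPM, the low group is another set of cells. There Glul was at 0.713 of the control level and Car14 at 0.468, while Slc1a2, at 1.07, and Kcnj10, at 0.991, stood near the control level. The level at high over low Lcn2 ran from 0.512 to 1.16 over the 8 genes in the knockout and from 0.0716 to 0.896 in the control library, where TMM scaling put Car2 at 1.12. Rod markers summed to 359 CPM in knockout and 970 CPM in control cells of the low group, and neutrophil markers to 139 and 382 CPM. Amacrine markers summed to 239 and 501 CPM there, and endothelial markers to 906 and 1523 CPM. Their part in the difference was not tested.

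**Figure D4:**
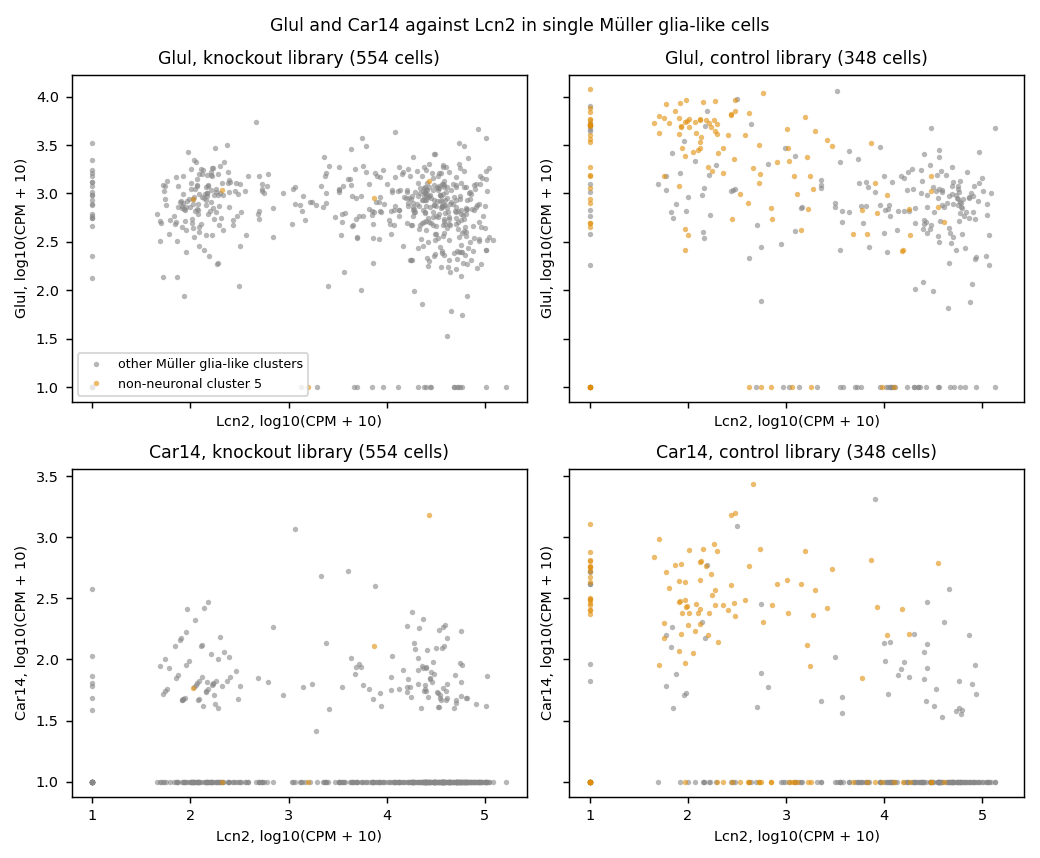
Glul (top) and Car14 (bottom) against Lcn2 in single Müller glia-like cells, both as log10(CPM + 10), in the knockout library (left, 554 cells) and the control library (right, 348 cells), with non-neuronal cluster 5 in orange. The knockout panels hold 5 cells of that cluster, and in the control panels its 129 cells gather at low Lcn2 with high Glul and Car14.

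Cell by cell, with each cell thinned to 5000 UMIs, Spearman's correlation with Lcn2 ran from -0.228 for Aqp4 to 0.0849 for Car2 over 481 knockout cells. Over 232 control cells it ran from -0.544 for Glul to -0.094 for Car2, with Aqp4 at -0.537 and Car14 at -0.463. Over the 142 control cells outside cluster 5 it ran from -0.286 for Glul to 0.103 for Slc38a3. Cells of 1 library share that library, Lcn2 itself rose with depth (0.145 in knockout and 0.444 in control cells), and weak correlations in such sparse counts are no finding.

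At the same thinned depth, shares of cells with a UMI followed the levels. Car14 was found in 12.5% of knockout and 37.1% of control Müller glia-like cells. Slc38a3 was found in 15.2% and 34.5%, above the 5.63% and 5.30% of amacrine-like cells at the same depth. Both shares were below those of bipolar-like cells, at 48.9% and 47.0%, and cone-like cells, at 54.7% and 59.2%. Aqp4 was found in 53.6% and 71.6%, against 1.79% and 1.104% of amacrine-like cells. Glul was found in 91.9% and 93.5% of Müller glia-like cells, so its difference lay in the count per cell, 4.25 UMIs in knockout and 11.1 UMIs in control cells. Thinning left out 73 knockout and 116 control Müller glia-like cells below that depth. Unthinned, the Car14 shares were 28.5% and 42.5%, against 0.192% and 0.239% of rod-like cells at medians of 1036 and 1121 UMIs.

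Among the 28 pairs of members, Glul with Car14 had a correlation of 0.0636 among knockout and 0.527 among control cells. Aqp4 with Car14 had 0.0761 and 0.472, and Glul with Aqp4 had 0.165 and 0.448. These 3 were the highest pairs of the control library, so their contrast between the libraries follows in part from that choice. The highest pair of the knockout library was Slc1a3 with Aqp4, at 0.360 in knockout and 0.251 in control cells. Next came Slc1a2 with Aqp4, at 0.302 and 0.403, and Slc1a3 with Slc1a2, at 0.185 and 0.153. Beyond the 8 genes, 2 genes were named as most alike to any member, with a correlation of at least 0.3 in both libraries among 4646 genes compared. Both went with Slc1a3: Mir99ahg, a microRNA host gene, at 0.365 in knockout and 0.326 in control cells, and Tmtc2 at 0.319 and 0.367.

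The same genes were also compared between the libraries in other classes. Slc1a2 was at 1.01 (0.968 to 1.06) of the control level in bipolar-like cells and 1.03 (0.949 to 1.12) in cone-like cells. It was lower in amacrine-like cells, at 0.825 (0.719 to 0.947), and in rod-like cells, at 0.851 (0.758 to 0.953). Retinal ganglion-like cells had it at 0.515 (0.326 to 0.817), from 44 and 38 UMIs. Neutrophil-like cells had it at 0.211 (0.116 to 0.358), from 16 and 108 UMIs. Horizontal-like cells had it at 1.96 (0.565 to 8.55), from 10 and 4 UMIs. Slc38a3 was at 0.894 (0.817 to 0.979) in bipolar-like and 0.581 (0.480 to 0.699) in rod-like cells. It was at 0.702 (0.536 to 0.919) in amacrine-like cells and 0.308 (0.124 to 0.671) in neutrophil-like cells, there from 8 and 37 UMIs. Horizontal-like cells had it at 2.35 (0.586 to 13.5), from 9 and 3 UMIs. The neutrophil-like class includes non-neuronal cluster 11, with 5 knockout and 55 control cells. Rod markers were the next best list of cluster 11, 1.56 log2 units above the median cluster, beside 2.50 for neutrophil markers. The part of cluster 11 in the neutrophil-like ratios was not tested. Glul was at 0.826 (0.751 to 0.907) in amacrine-like cells and 1.30 (1.17 to 1.45) in bipolar-like cells. It was at 0.681 (0.598 to 0.774) in endothelial-like cells, from 429 and 539 UMIs. In monocyte and macrophage-like cells it was at 0.484 (0.350 to 0.658), from 52 and 213 UMIs. In the remaining classes outside Müller glia the Glul interval included no difference. Car2 was at 0.804 (0.770 to 0.839) in amacrine-like and 1.18 (1.12 to 1.24) in bipolar-like cells.

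Other genes of the same tasks were read from 4 lists. Of 65 listed genes, 40 reached the minimum of 100 UMIs, and 5 of them were at least 1.5-fold lower and 3 at least 1.5-fold higher in the knockout library, where 15.3% and 3.88% of all genes were. Without cluster 5 the count lower was 1. The median log2 ratios of the lists lay between -0.34 and 0.18, beside -0.84 for the 8 members.

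In the list of glutamate uptake, metabolism and exchange, 1 of 12 measured genes was lower and 1 was higher. Slc7a11, the cystine and glutamate exchanger, was at 299 CPM in knockout and 199 CPM in control cells, a ratio of 1.51 (1.40 to 1.62), and at 1.09 without cluster 5. In both libraries Slc7a11 was higher where Lcn2 was high, by 2.76-fold in knockout and 8.36-fold in control cells. Slc3a2, its partner subunit, was at 459 and 356 CPM, a ratio of 1.29 (1.22 to 1.36).

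Among potassium channels and pumps 2 of 9 were lower and 0 higher. Atp1b2, a sodium pump beta subunit, was at 211 CPM in knockout and 240 CPM in control cells, a ratio of 0.877 (0.818 to 0.940), and at 1.16 without cluster 5. Slc12a2, the sodium, potassium and chloride cotransporter, had the largest ratio of the list, 1.13 (0.949 to 1.36), an interval that holds no difference. It was at 1.17 without cluster 5.

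Among water, chloride and dystrophin anchoring genes 2 of 8 were lower and 0 higher. Dmd, which encodes dystrophin, was at 46.5 CPM in knockout and 104 CPM in control cells, a ratio of 0.445 (0.394 to 0.503). Sntb1, a syntrophin, was at 140 and 299 CPM, a ratio of 0.468 (0.436 to 0.502). Dystrophin and its partners hold Kir4.1 and aquaporin 4 in the membrane of the end feet. Without cluster 5 both were at 0.771 and 0.772. Dtna was at 0.753 (0.705 to 0.805) and Lrrc8a, a volume-regulated anion channel subunit, at 1.28 (1.14 to 1.44).

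Among acid-base and lactate genes 0 of 11 were lower and 2 were higher. Slc16a3, the lactate carrier MCT4, was at 17.3 CPM in knockout and 8.46 CPM in control cells, a ratio of 2.04 (1.46 to 2.90), and at 1.49 without cluster 5. Car5b, a mitochondrial carbonic anhydrase, had the smallest ratio, 0.686 (0.568 to 0.831), and was at 1.02 without cluster 5. Bsg, the chaperone of lactate carriers, was at 625 and 688 CPM and Ldha at 293 and 239 CPM, ratios of 0.909 (0.873 to 0.947) and 1.23 (1.15 to 1.31). These ratios were 1.08 and 1.07 without cluster 5.

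**Figure D5:**
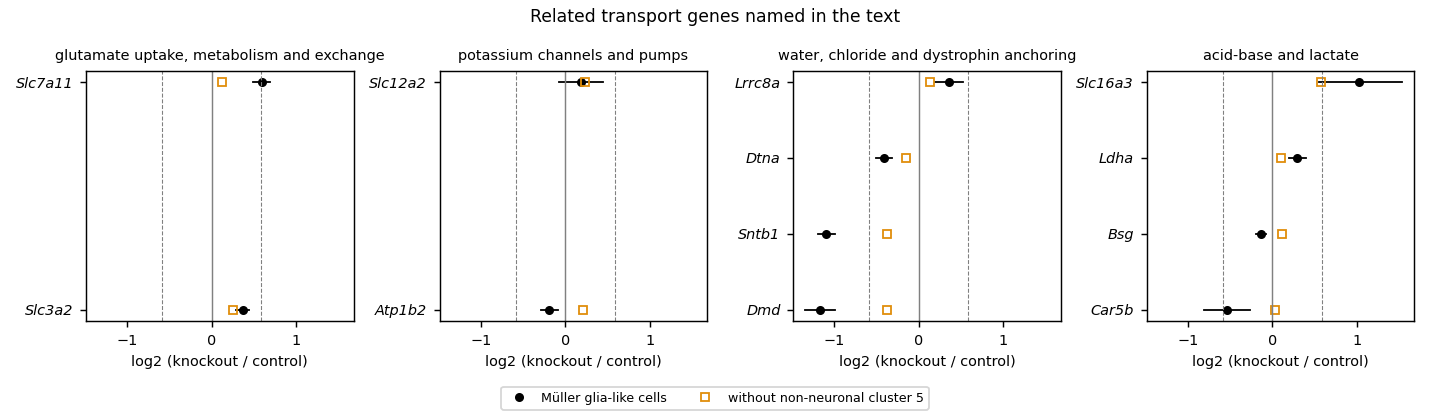
Knockout over control on a log2 axis for the 12 genes of the related lists named in the text, in Müller glia-like cells (black, with 95% counting intervals) and the same without non-neuronal cluster 5 (open orange squares). Dashed lines mark 1.5-fold. Dmd at 0.445 and Sntb1 at 0.468 lie furthest left, and both move right without cluster 5, to 0.771 and 0.772.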

How the data were processed

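The deposited values are unnormalised UMI counts of each gene in each barcode. The authors made them with Cell Ranger, whose version is 6.0.0 in the file headers, and mapped reads to mm10 per the submitters' processing notes, which also name Seurat 5.2.1. The labels' protocols give papain dissociation and 10x Genomics 3′ libraries. No file gave cell types. The sources used here give no sexes, no delay after injection and no annotation release. Of the 32285 features, 40 repeated a symbol, and the first of each symbol was used.

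Filters and clustering settings followed the submitters' design text. A cell was kept if its mitochondrial share was below 25% and it had 500 or more genes. Cells were clustered in R 4.3.3 with Seurat 5.3.0 (2000 variable genes without the 8 members and Lcn2, 11 principal components, resolution 1, seed 1), and clusters outside the neurons were clustered again. A cluster took the name of the marker list with the highest mean log2 level over the median cluster, where that was at least 0.5, led the next list by at least 0.4, rested on at least 3 detected markers and had no more markers of another list than of its own among the top 10 genes by fold. A shallow cluster also needed a marker of its own there. A Müller cluster also needed Rlbp1 at 10% or more of the median of the others. These limits were set after the data were seen, and differences from the study may come from these rebuilt names. Clusters kept unnamed held 729 knockout and 2173 control cells. Scrublet in scanpy 1.11.5 called 0 doublets in each library, which means that it has not worked. No cell was removed in the values given, and an alternative left out the 174 knockout and 548 control cells with the highest scores.

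Sums of UMIs over the cells of a class in a library are given as CPM, with exact Poisson intervals. Ratios are knockout over control with exact conditional binomial intervals, and 0.5 was added to both counts for log2 ratios across all genes. With 1 library per group no test between groups was possible. A fold of 1.5 is called among genes with at least 100 UMIs over both libraries. The steps for ratios, intervals and correlations were tested on simulated data. Alternatives were TMM scaling (edgeR 4.0.16), totals without Lcn2, thinning to 5000 UMIs per cell, other cell calls, other filters and other Lcn2 groups. Scripts ran in Python 3.11.15 with pandas 2.3.3, scipy 1.17.1 and numpy 2.4.6. Coordinates are from GENCODE M21 on GRCm38, the assembly also called mm10.

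The members and lists were chosen with earlier results of these data known. The genes named beside the members followed a rule: in each list, the genes at both ends of the ratio and the 2 with most CPM, and per member those of its 3 most alike genes with a correlation of at least 0.3 in both libraries. Some genes that the rule picks are not reported here, and the counts include them.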

Additional observations from a re-analysis of the deposited data

How the results depend on the processing

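Among 8 members, 6 were highest in Müller glia-like cells under every alternative run. The 6 members at least 1.5-fold lower in the knockout library became 5 with at least 1000 genes and under 10% mitochondrial UMIs, 4 with TMM scaling, 3 with the per-cell marker call, with all unnamed clusters closest to Müller glia or with cluster 6, and 0 without cluster 5, with or without cluster 6. The 5 genes of the related lists became 12 with the mean of per-cell CPM, 8 with the per-cell marker call, 17 with no minimum of UMIs, 1 without cluster 5, 10 with the unnamed clusters, 11 with cluster 6, and 9 with cluster 6 but without cluster 5. The share of all genes moved too, to 27.5% with the mean of per-cell CPM, 28.8% with no minimum, 13.5% with the per-cell marker call and 13.1% with the unnamed clusters. The 3 members lower at high Lcn2 in both libraries became 6 with the per-cell marker call, the unnamed clusters, cluster 6, or cluster 6 without cluster 5, 4 after thinning, and 2 (Aqp4 and Car14) with TMM scaling or with 2 Lcn2 groups. With the mean of per-cell CPM that count stayed at 3, but the genes were Aqp4, Slc1a2 and Slc38a3. The 0 members lower in every Lcn2 group became 1 after thinning and 1 with the mean of per-cell CPM. For these Lcn2 counts the share of all genes is given only for the main setting, at 2.59% and 1.18%. The changed counts therefore have no share of all genes beside them and are not read further. For direction, Kcnj10 turned to 1.04 with the per-cell marker call, 1.14 without cluster 5, 1.00 with the unnamed clusters, 1.00 with cluster 6 and 2.09 with cluster 6 but without cluster 5. Aqp4 turned to 1.02 without cluster 5. With cluster 6 but without cluster 5, Slc1a2 turned to 1.58, Slc1a3 to 1.15 and Car2 to 1.12. Aqp4, at 1.05, Slc38a3, at 1.00, and Car14, at 1.08, were then within counting error of no difference. The settings on clusters were chosen after the data were seen. Depth limits Kcnj10, Slc38a3 and Car14 most, with 253 to 659 UMIs per library. No paired analysis was possible because each group has 1 library.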
